A study of Homo sapiens with 2 samples.

Results

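Adenylyl cyclases make the intracellular messenger cAMP, and cyclic nucleotide phosphodiesterases break down cAMP and the related messenger cGMP. The genes described here were every protein-coding gene named ADCY with a number from 1 to 10 (10 genes) and every PDE gene of families 1 to 11 (24 genes, the PDE6 subunits among them), 34 of the 18518 gene numbers in the files. Antisense genes and pseudogenes were left out. The group was chosen on the difference reported below, because PDE genes had been seen to be lower as a family in these libraries, so that all ratios of the members are descriptions and none was tested. Of the 34 members 33 were listed in at least 1 library and 27 reached 10 counts in at least 1 library, 19 of them PDE and 8 ADCY genes.

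The study measured messenger RNA in cells at day 3 of differentiation towards blood, grown from the human embryonic stem cell line H1, which is an established line. The 2 groups were H1 cells of genotype MEIS1-/- and wild-type H1 cells, with 1 library each. MEIS1 is a homeodomain transcription factor that works with HOX and PBX proteins. Both groups received 40 ng/ml activin A with 50 ng/ml BMP4 for 2 days, and then a step of 2 days, in which day 3 falls, in medium with bFGF at 50 ng/ml and VEGF at 40 ng/ml. The labels did not give the deleted part of MEIS1, the number of clones or cultures, or whether the library kit kept strand.

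MEIS1 itself had 68 counts in the library labelled MEIS1 deleted, called the deleted library below, and 89 in the wild-type library, a ratio of 0.759 whose interval (0.543 to 1.05) included 1. Its level thus did not check the label. The deleted library held 5296431 rounded counts and the wild-type library 5202877. In FPKM, the count per length and library size, the pluripotency gene POU5F1 had 83.4 in the deleted library and 148 in the wild-type library. The VEGF receptor gene KDR had 160 FPKM in the deleted library and 141 in wild type, and the pan-leukocyte gene PTPRC 0.9 in the deleted library and 0.7 in wild type.

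Membrane adenylyl cyclases turn ATP into cAMP when receptors activate the stimulatory G protein, and the soluble cyclase ADCY10 responds to bicarbonate. Phosphodiesterases open the cyclic ring and end the signal. PDE4, PDE7 and PDE8 enzymes act on cAMP, PDE5, PDE6 and PDE9 on cGMP, and PDE1, PDE2, PDE3, PDE10 and PDE11 on both. cAMP acts through protein kinase A, the exchange factors RAPGEF3 and RAPGEF4 and cyclic nucleotide-gated channels, and in endothelium it is known to tighten junctions.

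The phosphodiesterase genes did not differ in a single direction. Ratios are the scaled count in the deleted library over that in the wild-type library with 1 added to each count, and each has an exact 95% interval that covers counting error only. A gene is written as higher or lower here where that interval left out 1. Of the 19 PDE genes compared, 5 were lower (PDE1C, PDE2A, PDE3B, PDE4D and PDE6D), 4 were higher (PDE1B, PDE3A, PDE5A and PDE10A) and 10 had an interval that included 1. Over all 14381 genes compared, 14.7% were lower and 15.4% higher by the same rule. A log2 ratio below 0, whatever its interval, was found for 13 of the 19 PDE genes and for 49.7% of all genes compared. The median log2 ratio was -0.28 over the 19 PDE genes and 0.0032 over all genes compared. At least 2-fold differences with such an interval were limited to 1 PDE gene in the lower direction, PDE1C, and 1 in the higher, PDE1B, against a background of 2.95% and 2.9% of all genes. In bulk RNA, fewer cells of a type and less RNA per cell cannot be told apart.

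**Figure D1:**
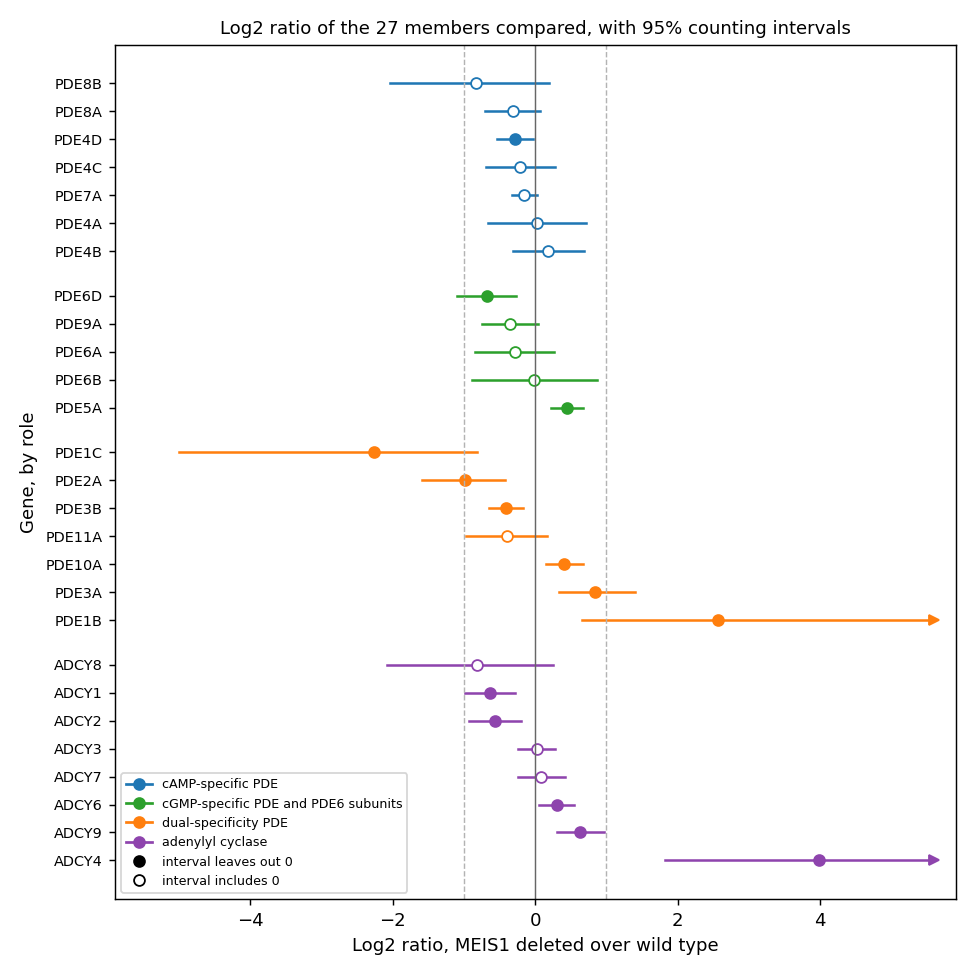
Log2 ratio (horizontal axis, deleted over wild type) of the 27 members with at least 10 counts in a library, grouped by role, with exact 95% counting intervals as lines and 1 library per genotype. Filled points mark the 14 members whose interval left out a log2 ratio of 0, open points the 13 whose interval included it, dashed lines a 2-fold difference, and arrows intervals that run past the axis; filled points lie on both sides of 0 among PDE and among ADCY genes.

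Summed over the family, PDE genes had 2430 counts in the deleted library (exact Poisson 95% interval 2334 to 2529) and 2576 in the wild-type library (2478 to 2677), a ratio of 0.934 (0.883 to 0.987). The difference was small. Leaving out each of the 23 listed genes in turn kept the interval below 1 for 18 of them. Many of these outcomes were fixed in advance, in a family chosen for being lower. Leaving out a gene with more counts in the deleted library can only lower the ratio, and leaving out a scarce gene hardly moves it. Over all 23 the ratio ran from 0.882 without PDE5A to 0.961 without PDE3B. Without PDE6D the sum was 2350 against 2449 counts and the ratio 0.95, with an interval (0.897 to 1.01) that included 1. The interval also included 1 when PDE2A (0.947), PDE3B (0.961), PDE4D (0.947) or PDE7A (0.943) was left out in turn. On the FPKM scale, which allows genes of different length to be added, the 24 PDE genes summed to 92.7 in the deleted library and 109.9 in the wild-type library, a net difference of -17.3. The 15 PDE genes with less FPKM in the deleted library differed by -23.8 in sum and the 8 with more by 6.47, and PDE6D alone differed by -8.32. PDE6D (gene number 5147) encodes the delta subunit first found with the rod photoreceptor enzyme, which carries prenylated proteins such as RAS and has no phosphodiesterase activity. The 21 genes of catalytic subunits summed to 78.2 FPKM in the deleted library and 86.7 in wild type.

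**Figure D2:**
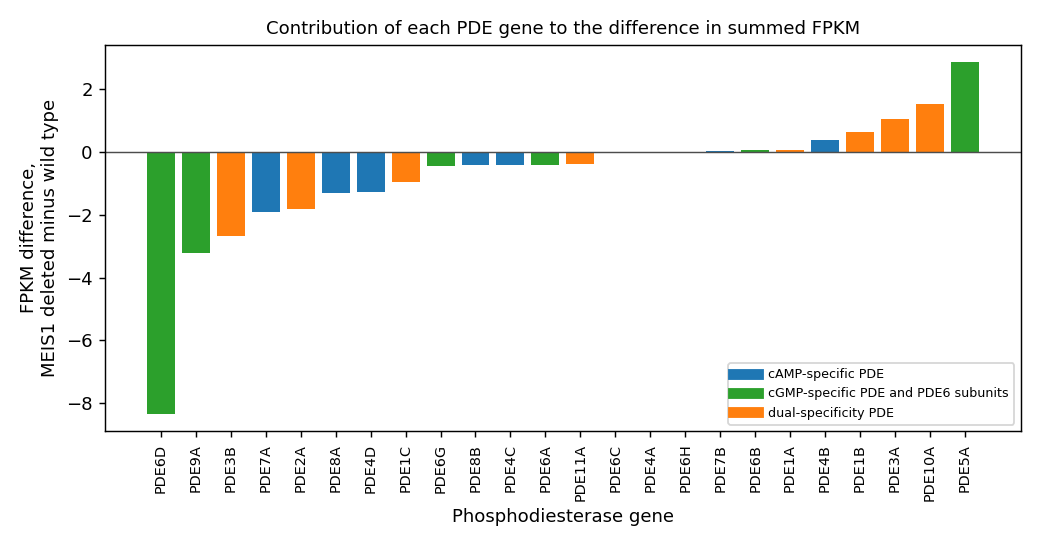
Difference in FPKM (vertical axis, deleted minus wild type) of each of the 24 PDE genes, 1 library per genotype, coloured by role. PDE6D, at -8.32, has the longest bar, and 8 genes lie above 0, led by PDE5A.

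The same 5 PDE genes led the family in both libraries, in another order. In the deleted library PDE7A was highest with 14.6 FPKM, followed by PDE6D with 13.5, PDE5A with 10.4, PDE9A with 9.81 and PDE3B with 8 FPKM. In the wild-type library PDE6D was highest with 21.8 FPKM, followed by PDE7A with 16.5, PDE9A with 13, PDE3B with 10.7 and PDE5A with 7.56 FPKM. PDE5A thus had rank 3 in the deleted library and rank 5 in the wild-type library. Neighbours in these orders have no replicate spread to set them against.

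**Figure D3:**
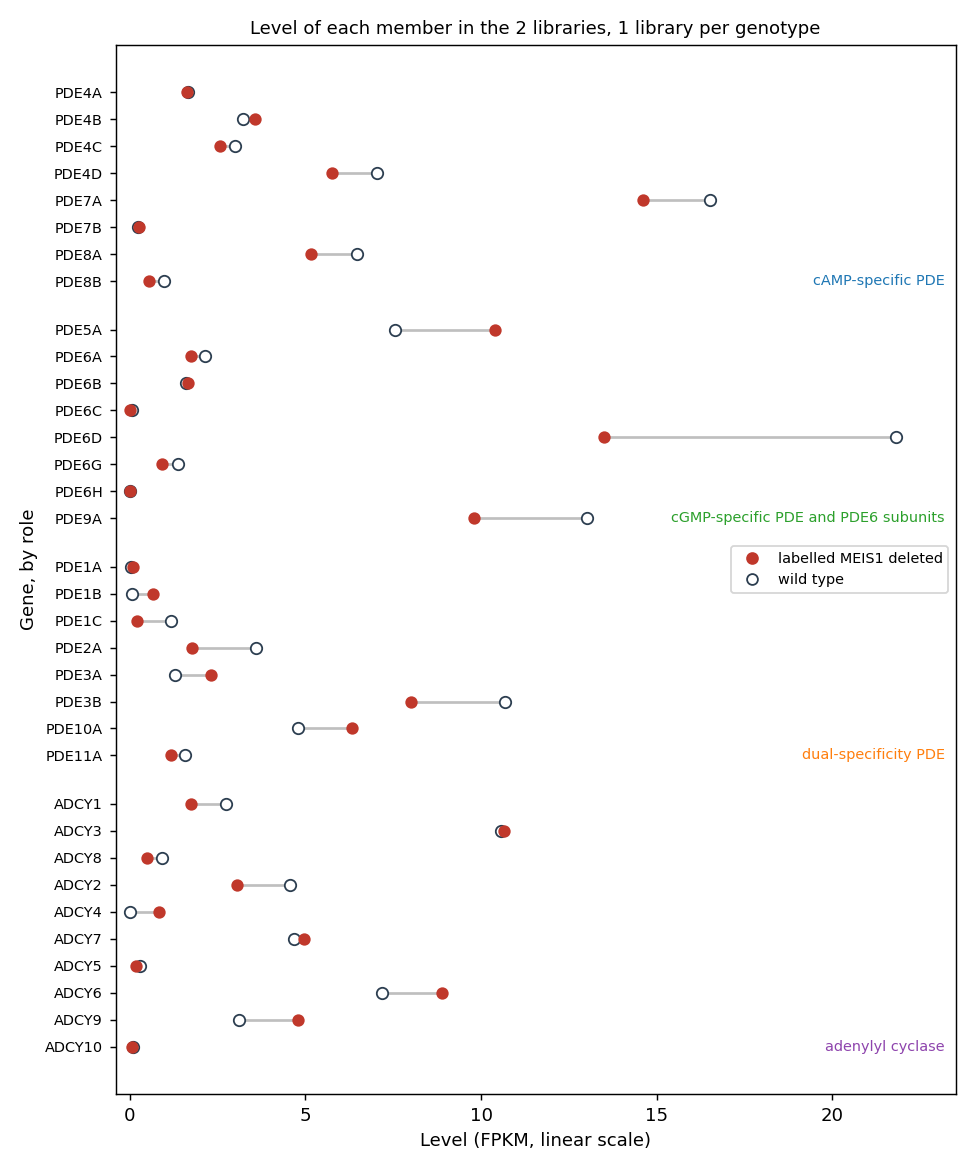
Level (horizontal axis, FPKM on a linear scale) of all 34 members in the deleted library (filled) and the wild-type library (open), grouped by role, with 1 library per genotype. PDE6D, PDE9A and PDE3B have the open point to the right, and PDE5A, PDE10A, ADCY6 and ADCY9 the filled one.

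The genes of cAMP-specific enzymes were slightly lower in sum. Together PDE4, PDE7 and PDE8 genes had 1055 counts in the deleted library and 1188 in the wild-type library, a ratio of 0.879 (0.808 to 0.956). Of the 7 compared 1 was lower and 0 were higher, to be read against 14.7% and 15.4% of all genes. PDE4D (gene number 5144), a target of the anti-inflammatory drug roflumilast with many short and long isoforms, had 238 counts (5.75 FPKM) in the deleted library and 286 (7.03 FPKM) in the wild-type library. Its ratio was 0.824 and its interval ended just under 1, at 0.982. PDE7A, the most abundant catalytic PDE gene, had 512 counts in the deleted library and 564 in wild type, partly shared with other genes, and a ratio of 0.899 (0.796 to 1.01). PDE8A, an enzyme with very high affinity for cAMP, had 102 counts in the deleted library against 126 in wild type, a ratio of 0.803 (0.611 to 1.05). Its paralog PDE8B had 12 counts in the deleted library, against 22 in wild type, and an interval (0.244 to 1.14) that included 1 as well.

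The other PDE4 genes had intervals that included 1. PDE4B, the isoform prominent in immune cells, had 76 counts in the deleted library and 66 in wild type (ratio 1.14, interval 0.809 to 1.61). PDE4C had 69 counts in the deleted library and 79 in wild type (0.866, 0.617 to 1.21). PDE4A had 39 counts in the deleted library and 38 in wild type (1.02, 0.633 to 1.63). PDE7B stayed under the minimum with 7 counts in each library.

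Among cGMP-specific enzymes and PDE6 subunits, PDE5A was higher and PDE6D lower. The summed counts, 645 in the deleted library against 629 in wild type, had a ratio of 1.01 (0.908 to 1.13). In FPKM, where the short PDE6D weighs more, the sum was lower, 38 in the deleted library against 47.6 in wild type. PDE5A (gene number 8654), the target of sildenafil and the main cGMP-hydrolysing enzyme of vascular smooth muscle, had 381 counts (10.4 FPKM) in the deleted library and 277 (7.56 FPKM) in the wild-type library. The ratio was 1.36 (1.16 to 1.59). PDE6D had 80 counts (13.5 FPKM) in the deleted library and 127 (21.8 FPKM) in wild type, a ratio of 0.626 (0.465 to 0.831). PDE9A, the enzyme with the highest affinity for cGMP, had 102 counts (9.81 FPKM) in the deleted library against 129 (13 FPKM) in wild type, a ratio of 0.784 (0.598 to 1.02) whose interval just included 1.

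The photoreceptor enzyme PDE6 was otherwise at low level. PDE6A, a catalytic subunit of rods, had 53 counts in the deleted library and 64 in wild type (0.822, 0.559 to 1.2), and its partner PDE6B had 24 in each. The inhibitory gamma subunit gene PDE6G had 5 counts in the deleted library and 7 in wild type. The cone subunit gene PDE6C had 0 counts in the deleted library and 1 in wild type, and PDE6H, the gamma subunit of cones, was listed in neither library. The PDE6 holoenzyme is otherwise known from the retina, and the counts of PDE6A and PDE6B were not whole, so part of their reads was shared with other genes.

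The dual-specificity enzymes held the PDE genes with the largest ratios in both directions. Together they had 730 counts in the deleted library and 759 in wild type, a ratio of 0.952 (0.859 to 1.06). PDE2A (gene number 5138), which cGMP stimulates to break down cAMP, had 40 counts (1.77 FPKM) in the deleted library and 79 (3.6 FPKM) in the wild-type library. The ratio of 0.507 (0.334 to 0.742) fell just short of a 2-fold difference. PDE3B (gene number 5140), which cGMP inhibits and which acts in insulin signalling, had 260 counts (8 FPKM) in the deleted library against 341 (10.7 FPKM) in wild type, a ratio of 0.755 (0.64 to 0.889). Its paralog PDE3A (gene number 5139), the enzyme of heart, platelets and smooth muscle, went the other way with 88 counts (2.32 FPKM) in the deleted library and 48 (1.3 FPKM) in wild type. The ratio of PDE3A was 1.8 (1.26 to 2.64), and part of its reads was shared with other genes.

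PDE10A (gene number 10846), best known from the striatum, had 278 counts (6.32 FPKM) in the deleted library and 207 (4.8 FPKM) in the wild-type library, a ratio of 1.33 (1.11 to 1.6). PDE11A had 49 counts in the deleted library and 64 in wild type, and an interval (0.511 to 1.12) that included 1. The calmodulin-stimulated PDE1 genes were all scarce. PDE1C had 3 counts in the deleted library and 18 in wild type, a ratio of 0.208 (0.0311 to 0.565). PDE1B had 11 counts in the deleted library against 1 in wild type, a ratio of 5.94 (1.58 to 469). PDE1A had 1 count in each library. The 2 genes at least 2-fold different thus rested on 11 and 18 counts in the library where each was higher.

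Adenylyl cyclase genes also split. Of the 8 compared, 3 were higher (ADCY4, ADCY6 and ADCY9), 2 lower (ADCY1 and ADCY2) and 3 had an interval that included 1, to be read against the 15.4% and 14.7% of all genes given above. The median log2 ratio was 0.053, and -0.18 when the scarce ADCY5 and ADCY10 were included. Summed counts were 1178 in the deleted library (1112 to 1247) and 1138 in the wild-type library (1073 to 1206), a ratio of 1.02 (0.944 to 1.11). In FPKM the sum was 35.7 in the deleted library and 34.2 in wild type. ADCY3, a cyclase known from olfactory signalling and the highest of the family in both libraries, had 250 counts (10.7 FPKM) in the deleted library and 244 (10.6 FPKM) in wild type, and a ratio of 1.01 (0.847 to 1.21).

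ADCY9 (gene number 115), a widely expressed cyclase insensitive to forskolin, had 198 counts (4.79 FPKM) in the deleted library and 126 (3.1 FPKM) in the wild-type library. Its ratio of 1.55 (1.24 to 1.96) was the largest among cyclases with at least 50 counts in a library. ADCY6 (gene number 112), one of the pair of cyclases that calcium inhibits, had 309 counts (8.88 FPKM) in the deleted library against 248 (7.17 FPKM) in wild type, a ratio of 1.23 (1.04 to 1.46). ADCY4 (gene number 196883), which G beta gamma subunits stimulate, had 15 counts in the deleted library and was listed only there. Its ratio had an interval from 3.55 upwards with no upper end. With the floor of 3 counts in place of 0 for wild type, and the 15 counts taken as exact, ADCY4 was 4.95-fold higher. It was the 1 cyclase past 2-fold.

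The lower cyclases are best known from the nervous system. ADCY1 (gene number 107), which calcium and calmodulin stimulate, had 118 counts (1.76 FPKM) in the deleted library and 181 (2.75 FPKM) in wild type, a ratio of 0.647 (0.507 to 0.818). ADCY2 (gene number 108), which G beta gamma stimulates, had 107 counts (3.05 FPKM) in the deleted library against 157 (4.57 FPKM) in wild type, a ratio of 0.677 (0.523 to 0.868). ADCY8, the other calmodulin-stimulated neural cyclase, had 11 counts in the deleted library and 20 in wild type, and an interval (0.236 to 1.19) that included 1. ADCY7 had 162 counts (4.95 FPKM) in the deleted library and 151 (4.69 FPKM) in wild type, and a ratio of 1.06 (0.845 to 1.33). ADCY5 had 6 counts in the deleted library and 8 in wild type and ADCY10 had 2 in the deleted library and 3 in wild type, all under the minimum. Expected counts of ADCY1, ADCY2, ADCY6 and ADCY9 were not whole, so these 4 shared reads with other genes.

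The length column, which varies with the mix of transcripts of a gene, differed by at most 3.01% for the members with several transcripts and at least 50 counts. PDE9A, with 20 transcripts, had a length of 1973 bases in the deleted library and 1915 in wild type. PDE5A, with 3 transcripts, had 6860 bases in the deleted library and 6989 in wild type. PDE4D, with 9 transcripts, had 7741 bases in the deleted library and 7756 in wild type. A single value per gene does not show which transcript differed, and counting error on these lengths was not given. Of the 14 members that were higher or lower, PDE2A, PDE3A and PDE4D have an antisense gene named after them, and PDE1C, PDE3B and ADCY6 overlap another protein-coding gene. Whether strand was kept is not given, so reads of such partners cannot be told apart here.

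Promoters were searched for the cAMP response element (CRE), the motif of the cAMP-activated factor CREB, and for the core motif of MEIS proteins, to which the deleted factor belongs. Sequences are RefSeq promoters of build GRCh38.p14, from 250 bases before to 50 after a start, and 74 such windows were given for 27 of the 34 members. Both strands were searched for the full element TGACGTCA, its core TGACG, which lies within the full element, and the MEIS core TGACAG. The full element was in 2 of 74 member windows (2.7%) and 1.85% of all 35116 windows. The CRE core was in 17.6% of member windows and 24.6% of all, and the MEIS core in 23% of member windows and 15.8% of all. By gene, the CRE core was in 12 of the 27 members and the MEIS core in 10. Windows of a gene can overlap, as in PDE1C and ADCY1, so a site can be counted more than once. A gene with more windows has more room for a match, and no share by gene was computed over all genes. Shown are both members with the full element and each of the 7 higher or lower members that hold a core, with 1 window a gene: for PDE4D the one with both cores, and for the others the one with a motif nearest the start. Capitals mark the motifs, and sequences run 5′ to 3′.
PDE4A promoter, chr19:10416523-10416822, plus strand: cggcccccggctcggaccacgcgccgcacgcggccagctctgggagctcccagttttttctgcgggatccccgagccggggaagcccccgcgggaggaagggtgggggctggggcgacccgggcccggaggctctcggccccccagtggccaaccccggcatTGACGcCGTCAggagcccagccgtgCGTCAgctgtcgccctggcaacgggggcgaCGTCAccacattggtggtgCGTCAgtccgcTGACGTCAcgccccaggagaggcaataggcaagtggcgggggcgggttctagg
PDE7B promoter, chr6:135851451-135851750, plus strand: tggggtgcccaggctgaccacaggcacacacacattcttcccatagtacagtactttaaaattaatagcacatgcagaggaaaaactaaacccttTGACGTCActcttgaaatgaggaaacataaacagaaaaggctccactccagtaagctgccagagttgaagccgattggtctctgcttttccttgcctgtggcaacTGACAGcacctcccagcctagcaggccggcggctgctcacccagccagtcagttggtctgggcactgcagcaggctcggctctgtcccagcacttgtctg
PDE1C promoter, chr7:32070979-32071278, minus strand: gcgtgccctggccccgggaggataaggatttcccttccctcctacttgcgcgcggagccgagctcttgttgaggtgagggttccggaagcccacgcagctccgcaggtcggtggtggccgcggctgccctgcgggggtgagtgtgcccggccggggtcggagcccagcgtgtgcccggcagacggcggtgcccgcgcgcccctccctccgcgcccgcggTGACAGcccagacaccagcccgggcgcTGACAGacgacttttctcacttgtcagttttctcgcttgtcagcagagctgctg
PDE4D promoter, chr5:59587576-59587875, minus strand: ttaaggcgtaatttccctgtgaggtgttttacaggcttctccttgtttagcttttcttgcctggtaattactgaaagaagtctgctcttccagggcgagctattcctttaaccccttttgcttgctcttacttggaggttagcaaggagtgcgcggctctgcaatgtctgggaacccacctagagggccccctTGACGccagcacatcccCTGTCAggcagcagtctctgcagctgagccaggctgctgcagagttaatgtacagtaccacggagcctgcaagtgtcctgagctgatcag
PDE6D promoter, chr2:231781233-231781532, minus strand: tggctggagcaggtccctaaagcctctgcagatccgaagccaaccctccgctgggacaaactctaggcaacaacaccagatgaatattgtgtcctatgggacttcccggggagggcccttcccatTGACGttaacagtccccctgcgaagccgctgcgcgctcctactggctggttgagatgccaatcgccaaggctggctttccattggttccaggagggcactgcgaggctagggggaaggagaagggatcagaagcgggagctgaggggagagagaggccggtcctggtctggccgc
ADCY1 promoter, chr7:45573890-45574189, plus strand: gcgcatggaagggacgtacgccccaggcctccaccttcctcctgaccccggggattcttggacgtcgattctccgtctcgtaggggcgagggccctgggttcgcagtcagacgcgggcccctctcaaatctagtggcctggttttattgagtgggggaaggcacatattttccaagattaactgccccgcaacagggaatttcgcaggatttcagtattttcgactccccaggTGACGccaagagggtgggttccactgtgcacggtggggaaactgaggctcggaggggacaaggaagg
ADCY2 promoter, chr5:7395888-7396187, plus strand: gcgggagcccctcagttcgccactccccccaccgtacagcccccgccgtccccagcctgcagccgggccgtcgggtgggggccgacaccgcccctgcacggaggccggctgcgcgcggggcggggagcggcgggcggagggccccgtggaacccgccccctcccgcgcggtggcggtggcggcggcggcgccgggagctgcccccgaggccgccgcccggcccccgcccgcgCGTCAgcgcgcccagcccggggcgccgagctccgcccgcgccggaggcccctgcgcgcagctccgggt
PDE1B promoter, chr12:54549830-54550129, plus strand: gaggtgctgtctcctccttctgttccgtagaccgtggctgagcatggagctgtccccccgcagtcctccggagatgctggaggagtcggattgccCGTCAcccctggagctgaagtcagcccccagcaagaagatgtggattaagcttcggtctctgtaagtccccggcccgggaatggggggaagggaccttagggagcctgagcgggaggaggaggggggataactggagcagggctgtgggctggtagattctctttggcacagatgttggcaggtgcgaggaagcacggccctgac
PDE5A promoter, chr4:119627991-119628290, minus strand: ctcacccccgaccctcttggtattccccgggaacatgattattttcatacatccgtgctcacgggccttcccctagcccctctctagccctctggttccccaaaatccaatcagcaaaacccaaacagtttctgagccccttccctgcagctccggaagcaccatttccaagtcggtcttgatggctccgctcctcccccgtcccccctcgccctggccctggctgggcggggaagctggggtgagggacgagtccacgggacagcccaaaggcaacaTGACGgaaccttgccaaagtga

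In these windows PDE4A carried the full element at -3, where -1 is the base before the start, and PDE7B carried it at -155 with a MEIS core at -50. These were the 2 members with the full element, and PDE4A had an interval that included 1 while PDE7B had 7 counts in each library. The CRE core stood in 4 lower genes, at -125 in PDE6D, -57 in PDE4D, -17 in ADCY1 and -18 in ADCY2, and in 2 higher genes, at -155 in PDE1B and 29 after the start in PDE5A. It was also in ADCY3, PDE4C and PDE6B, none of them higher or lower, and in PDE6H, which was listed in neither library. The MEIS core stood in 2 lower genes, PDE4D, at -40 in this window, and PDE1C, with 2 in this window. The lower members PDE2A, PDE6D, ADCY1 and ADCY2 had none in their windows. Nor had the higher members with a window (PDE1B, PDE3A, PDE5A, PDE10A and ADCY4). PDE1C and PDE4D have more windows than each of these genes, and 15.8% of all windows hold this core. No difference between lower and higher genes is therefore read from it. The other genes with a MEIS core, which were neither higher nor lower or were under the minimum, were ADCY10, PDE11A, PDE1A, PDE4A, PDE4B, PDE6B, PDE6C and PDE7B. A match is only a run of letters, and the files give no binding data.

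The kinase through which cAMP mainly acts did not differ beyond counting error in any gene compared. Of 10 protein kinase A genes compared, 0 were higher and 0 lower, and the median log2 ratio was -0.049. Counts in this and all following lists are to be read against 15.4% of all genes higher and 14.7% lower. PRKX, a PKA-like catalytic kinase, had a ratio of 0.881 (0.77 to 1.01) and the kinase inhibitor gene PKIB 1.45 (0.961 to 2.24). Among 7 G alpha subunit genes 1 was higher and 2 were lower (median -0.0066), and GNAL, a stimulatory subunit, had 309 counts in the deleted library and 387 in wild type, a ratio of 0.791 (0.678 to 0.92). The inhibitory subunit gene GNAI2 had a ratio of 0.86 (0.799 to 0.924). Of 11 A-kinase anchoring protein genes, 2 were higher and 2 lower (median -0.047), with AKAP9 at 0.843 (0.746 to 0.951) and AKAP12 at 0.885 (0.841 to 0.931).

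The lists with wider spread were effectors and receptors. Among 8 other cyclic nucleotide effectors 2 were higher and 4 lower (median -0.27), with the cGMP-dependent kinase gene PRKG1 at 43 counts in the deleted library against 77 in wild type and a ratio of 0.558 (0.371 to 0.813). Of 7 guanylyl cyclase and natriuretic receptor genes compared, 1 was higher and 0 lower (median -0.074). That gene was NPR3, the clearance receptor for natriuretic peptides, with 91 counts in the deleted library and 24 in wild type, a ratio of 3.64 (2.37 to 6.15), while the receptor cyclase gene NPR1 stood at 0.95 (0.676 to 1.33). Among 6 Gs-coupled receptor genes 1 was higher and 2 were lower (median -0.17). The parathyroid hormone receptor gene PTH1R had a ratio of 0.647 (0.437 to 0.936), and CALCRL, a receptor subunit for adrenomedullin, 1.34 (0.995 to 1.83).

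Of the 8 genes of the CREB family and its coactivators 0 were higher and 3 lower (median -0.18), against 15.4% and 14.7% of all genes. The coactivator gene CRTC2 had 119 counts in the deleted library and 166 in wild type, a ratio of 0.711 (0.556 to 0.903), and EP300 had a ratio of 0.791 (0.735 to 0.851). Of 10 CREB target genes 0 were higher and 3 lower, while the median, 0.11, was above 0. FOS, an immediate early gene with many inputs besides CREB, had 33 counts in the deleted library against 67 in wild type and a ratio of 0.495 (0.311 to 0.75). NR4A1, an orphan nuclear receptor gene, had 82 counts in the deleted library against 137 in wild type and a ratio of 0.595 (0.445 to 0.784). Both compared efflux transporter genes, ABCC4 and ABCC5, had intervals that included 1, at 1.03 and 1.02 (0.88 to 1.21 and 0.871 to 1.19).

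**Figure D4:**
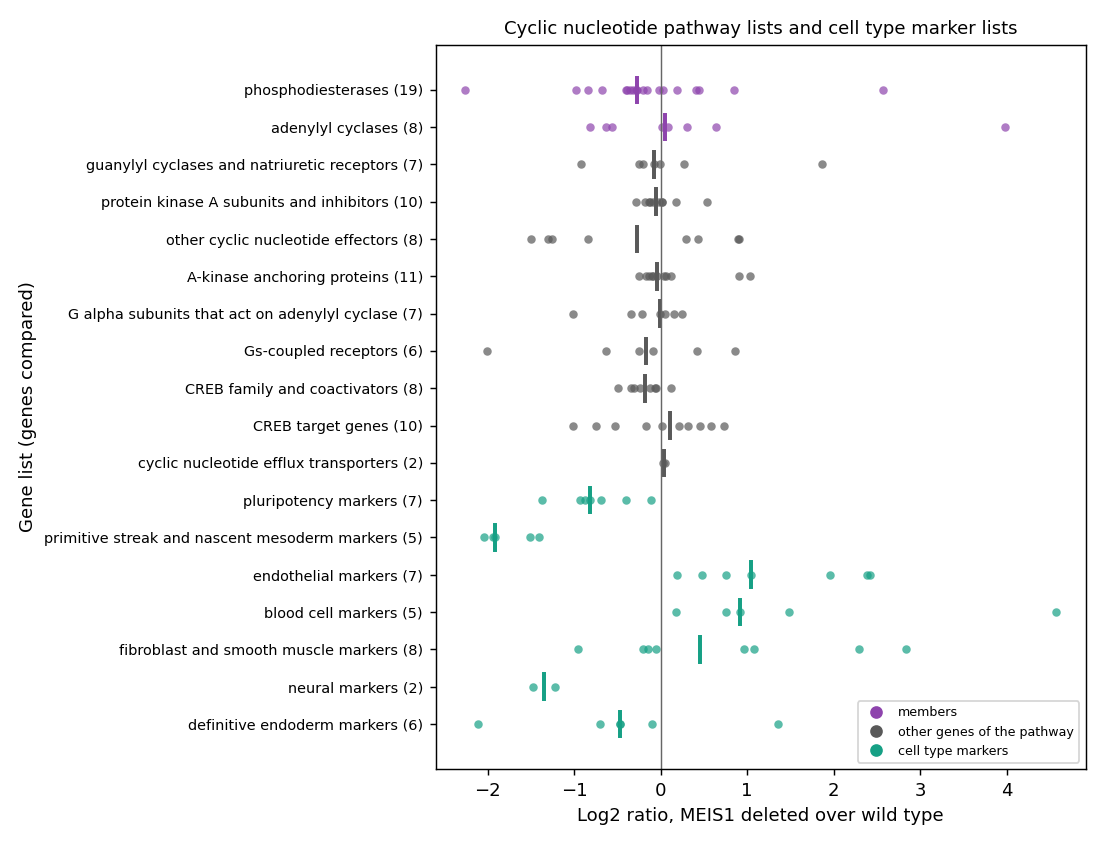
Log2 ratios (horizontal axis, deleted over wild type) of single genes as points and list medians as bars, for the PDE and ADCY members, 9 lists of other pathway genes and 7 lists of cell type markers, with the number of genes compared in brackets and 1 library per genotype. Member medians lie at -0.28 and 0.053, inside the span from the primitive streak markers at -1.91 to the endothelial markers at 1.05.

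Marker lists of cell types had medians on both sides of 0, each of them farther from 0 than those of the PDE and ADCY genes. Endothelial markers were higher in 7 of 7 compared, with 242 FPKM summed in the deleted library and 179 in wild type, and the eighth, EMCN, was under the minimum. Of 5 blood cell markers compared 3 were higher, with 44.5 FPKM in the deleted library and 25.4 in wild type, and HBZ was listed in neither library. Primitive streak markers were lower in 5 of 5 compared, with 38.6 FPKM in the deleted library against 144 in wild type. Pluripotency markers were lower in 7 of 7 compared, with 599.9 FPKM in the deleted library against 824 in wild type. Under the minimum were FGF8 (4 counts in the deleted library, 2 in wild type), GSC (2 and 3) and MESP1 (1 and 5) of the first list. In the second list this was SOX2 (9 and 4). Fibroblast and smooth muscle markers were higher in 3 of 8 and lower in 2, with 429.6 FPKM in the deleted library against 392 in wild type. Definitive endoderm markers were higher in 1 of 6 and lower in 3, with 114 FPKM in the deleted library against 159 in wild type. Neural markers were lower in 1 of 2, with 9.22 FPKM in the deleted library against 20.8 in wild type, and SOX1 and NEUROG2 were listed in neither library. The part of these shifts in the ratios of PDE2A, PDE3A, PDE5A, PDE6D, ADCY4 and the other members was not tested.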

How the data were processed

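The authors deposited, per the file headers, a table per library with a length, an expected count (an estimated count that need not be whole) and FPKM for each gene number. The submitters' processing notes name BWA, Bowtie, RSEM and build hg19 without versions, and which step made the tables is not given in the sources used here. The deposited FPKM were read as counts over length and over a median implied total of 5317429 counts in the deleted and 5222824 in the wild-type library. A gene that only 1 table lists was set to 0 in the other library. Symbols came from RefSeq (GRCh38.p14), which matched 18413 of 18518 numbers; unmatched numbers held 0.193% of counts in the deleted and 0.181% in the wild-type library, and 2 list symbols were updated to current ones.

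Expected counts were rounded and scaled by TMM effective library sizes over all genes (edgeR 4.0.16, R 4.3.3; sizes differ by a factor of 1.01). Genes with 10 counts in at least 1 library were compared. Intervals are Clopper-Pearson, given the sum of both counts, without the pseudocount of 1. They and the floor of 3 counts cover counting error only. They take reads as independent, which PCR copies are not, so they can be too narrow even for that error. Each genotype has 1 library, so no test was made. The code was tested on simulated counts. Members described in full had at least 50 counts in a library, and up to 2 genes per pathway list were named, those with the largest absolute ratio at that minimum; 1 gene that this rule names is not reported here. Members and lists were chosen with earlier results of these data known. A count is whole within 0.005. Of the 34 members 8 have an antisense gene named after them and 11 overlap another protein-coding gene.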

Additional observations from a re-analysis of the deposited data

How the results depend on the processing

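Alternatives were other scalings (DESeq2 size factors, library totals, upper quartile), unrounded counts, FPKM, another pseudocount, other minimum counts and folds, and genes with whole counts alone. Across these, 253 values of single members were computed, of which 251 lay inside the member's own interval and 0 changed the direction of a called member. From FPKM plus 1, ADCY4 (log2 0.87) and PDE1B (0.66) lay below theirs. Part of this agreement was fixed in advance. The minimum-count and whole-count settings only chose genes and left each ratio unchanged. Size ratios of the scalings, deleted over wild type, ran only from 1 to 1.02. The median log2 ratio ran from -0.32 to -0.2 for PDE genes, and for ADCY genes it was -0.18 with no minimum count and 0.037 to 0.068 otherwise. The PDE sum had a ratio of 0.95 both without PDE6D and with catalytic subunits alone, choices made after seeing the data, and its interval then included 1. PDE genes at least 2-fold lower and higher, 1 and 1, were 0 and 0 from FPKM plus 1 and at a minimum of 50 counts, and 3 and 2 at 1.5-fold. ADCY genes past 2-fold, 0 lower and 1 higher, were 1 and 2 at 1.5-fold, and the higher one was lost (0) from FPKM plus 1 and at 50 counts. With whole counts alone, where fewer genes are compared, 0 ADCY genes were lower and 1 higher by the interval. Over all genes, 424 lower and 417 higher became 183 and 182 from FPKM plus 1, 171 and 161 at 50 counts, 893 and 827 at 1.5-fold and 81 and 111 at 4-fold; with whole counts alone 247 were at least 2-fold lower and 1379 lower by the interval. FPKM gives no counting interval, so that rule has no value there. Members with few counts, such as PDE1A, PDE1B, PDE1C, ADCY4 and PDE6C, are limited by depth. No paired analysis was possible because each genotype has 1 library.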
